A study of Mus musculus with 4 samples.

Results

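Defensin genes encode small, cysteine-rich antimicrobial peptides, and 71 of the 21774 protein-coding mouse genes in a RefSeq table of the mm10 genome carry a symbol that starts with Defa or Defb. Of these 71 genes, 29 are alpha defensins and 42 are beta defensins. They were chosen by symbol alone, and 1 of the alpha genes, Defa-ps8, is listed as protein-coding although its symbol marks a pseudogene. H3K9me3, the trimethylation of lysine 9 on histone H3, was read over each gene with 2 kb on each side, a gene being counted as covered when at least 1 bp of this region lay in an island, that is, in a stretch called as enriched by the authors.

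The cells were CD8+ T cells of mice on a C57BL/6 background, either wild type (WT) littermates or knockouts (KO) for Suv39h1, which encodes a histone methyltransferase that lays down H3K9me3. Cells of both genotypes were cultured for 3 days with antibodies against CD3 and CD28 and with interleukin-2, so activation is common to both. The labels name 4 libraries, 1 H3K9me3 and 1 input library per genotype; the 2 H3K9me3 libraries are used here and the inputs are not analysed here. The labels do not give the age of the mice, how many mice a library stands for or how the knockout was made. With 1 library per genotype there is no replicate error and no test between genotypes, and every difference below is a difference between 2 lists of islands.

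Alpha defensins of the mouse, also called cryptdins, are made by Paneth cells at the base of the crypts of the small intestine and are cut to their active form by the protease matrilysin. Beta defensins are made by many surface epithelia, and many of them in the male reproductive tract. Both families sit in tandem arrays, and neither is a known product of CD8+ T cells. H3K9me3 is a mark of silent chromatin that can spread over repeats and over clusters of related genes.

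Depth over the whole genome is unknown, since the files hold reads in called islands only. Called islands numbered 12371 in WT, with 5547695 reads, and 25424 in KO, with 10020253 reads, so a KO excess of islands was present over the genome before any gene is considered. The median island had 40.4 reads per kb in WT and 40.1 in KO. None of the 8 T cell marker genes checked (Cd8a, Cd8b1, Cd3e, Cd3d, Cd3g, Cd2, Lck and Zap70) had an island in either list, but islands do not measure expression and so do not test the cell type. Of the 12 marker genes of B cells, myeloid cells and Paneth or epithelial cells, only Adgre1 had islands, in both lists. Over all protein-coding genes 14.0% were covered in WT and 13.7% in KO, so counts over so few markers are not read as a result. Suv39h1 itself had no island in either list, which does not show whether the gene was lost.

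The sequences at the starts of the genes that the results turn on are shown first. A start window runs from 250 bases before to 50 bases after a gene's start, as RefSeq gives it for GRCm38.p6, the assembly that mm10 names, and 45 of the 71 genes have one in the table. Capitals mark CG dinucleotides, the usual sites of DNA methylation. The first 4 are the start windows that lay in an island: Defb11 (chr8:21906383-21906682, minus strand), in both genotypes; Defb38 (chr8:19026519-19026818, minus strand), in WT alone; Defb39 (chr8:19064872-19065171, minus strand) and Defb41 (chr1:18265089-18265388, minus strand), in KO alone. The last 2 are alpha windows outside any island, Defa21 (chr8:21025295-21025594, plus strand) and Defa36 (chr8:21427178-21427477, plus strand). They are shown because Defa22 carries the same 300 bases as Defa21, and Defa37 the same as Defa36.
Defb11: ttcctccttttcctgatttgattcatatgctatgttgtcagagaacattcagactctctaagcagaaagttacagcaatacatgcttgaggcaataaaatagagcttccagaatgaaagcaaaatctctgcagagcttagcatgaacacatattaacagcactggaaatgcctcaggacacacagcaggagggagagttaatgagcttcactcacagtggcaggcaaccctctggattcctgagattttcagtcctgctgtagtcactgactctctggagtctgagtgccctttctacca
Defb38: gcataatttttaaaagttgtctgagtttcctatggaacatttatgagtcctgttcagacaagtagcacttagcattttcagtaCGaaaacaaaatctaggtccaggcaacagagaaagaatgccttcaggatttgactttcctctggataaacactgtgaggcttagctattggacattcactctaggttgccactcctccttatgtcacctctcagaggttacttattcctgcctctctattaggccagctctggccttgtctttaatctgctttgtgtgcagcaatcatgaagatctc
Defb39: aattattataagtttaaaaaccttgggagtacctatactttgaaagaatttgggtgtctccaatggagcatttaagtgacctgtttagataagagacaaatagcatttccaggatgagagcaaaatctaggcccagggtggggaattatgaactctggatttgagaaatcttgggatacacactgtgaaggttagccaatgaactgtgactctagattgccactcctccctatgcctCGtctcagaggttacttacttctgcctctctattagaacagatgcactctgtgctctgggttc
Defb41: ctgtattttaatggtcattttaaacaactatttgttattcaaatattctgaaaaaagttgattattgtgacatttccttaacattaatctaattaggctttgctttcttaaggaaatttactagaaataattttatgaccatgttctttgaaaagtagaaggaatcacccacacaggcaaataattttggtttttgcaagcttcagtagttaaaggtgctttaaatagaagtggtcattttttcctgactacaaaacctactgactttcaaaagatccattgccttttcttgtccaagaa
Defa21: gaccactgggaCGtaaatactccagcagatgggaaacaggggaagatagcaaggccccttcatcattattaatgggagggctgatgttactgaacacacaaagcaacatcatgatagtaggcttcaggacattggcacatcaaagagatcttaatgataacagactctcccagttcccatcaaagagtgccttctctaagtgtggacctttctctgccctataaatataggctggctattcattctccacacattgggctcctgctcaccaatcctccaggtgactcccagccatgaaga
Defa36: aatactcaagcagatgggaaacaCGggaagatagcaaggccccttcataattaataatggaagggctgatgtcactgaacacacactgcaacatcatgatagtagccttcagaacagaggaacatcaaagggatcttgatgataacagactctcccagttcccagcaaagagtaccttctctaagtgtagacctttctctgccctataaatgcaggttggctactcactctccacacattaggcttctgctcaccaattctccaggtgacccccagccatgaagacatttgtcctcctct

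These windows hold few CG dinucleotides. The windows of Defb11 and Defb41 hold 0, and those of Defb38, Defb39, Defa21 and Defa36 hold 1 each. Over all 16 alpha windows the number ranged from 0 to 3, and over the 29 beta windows from 0 to 8, with a median of 1 in both. The median over 17492 protein-coding genes with a window was 13. Windows with 8 CG dinucleotides or fewer made up 40.7% of all windows, and 16.2% of the genes behind them carried a WT island and 19.3% a KO island, against 14.0% and 13.7% of all 21774 protein-coding genes. Without olfactory and vomeronasal receptor genes both shares were 13.9%. The shares of all protein-coding genes still include these receptor genes, and genes without a window. They are therefore not a like background for the 13.9%, and no excess or lack of islands is read from it.

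No alpha defensin gene had an island in either genotype. The count was 0 of 29 genes in WT and 0 of 29 in KO. For counting alone, the exact 95% binomial interval of each reaches 11.9%. Over all protein-coding genes 14.0% were covered in WT and 13.7% in KO. The 29 genes lie in 1 cluster and are not independent of each other. Their regions are short, from 4.80 to 5.33 kb, so the share among other protein-coding genes with regions of this length is a closer background. It was 18.5% in WT and 33.5% in KO over 1555 genes, most of them olfactory or vomeronasal receptor genes, and 5.62% and 9.78% over the 409 genes that are neither.

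The whole alpha array was free of islands, and not only the genes. It runs from Defa21 to Defa24 over 714 kb (chr8:21023545-21737471, with 2 kb on each side), and islands covered 0 kb of it in both genotypes. Islands lay close to both ends. The nearest WT island, at chr8:21011501-21016000, ended 9544 bp below Defa21, the first gene of the array. The nearest KO island, at chr8:21744501-21754000, began 9029 bp above Defa24, the last. Defa5 and Defa17, cryptdin genes inside the array, were 281393 and 104764 bp from the nearest WT island and 349393 and 87764 bp from the nearest KO island.

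The stretch without an island in either list, chr8:21016001-21744500, was 728 kb long. On the autosomes 329 of 31071 such stretches (1.06%) were as long or longer, and the median was 22.5 kb. The shares in this paragraph that compare lengths count stretches and not sequence. Long stretches hold a larger part of the sequence, so these shares do not give how rarely a place in the genome lies in one. It held 30 protein-coding genes, the 29 alpha defensins and Gm15313. Of the 329 stretches, 69 held as many genes. In the KO list alone the stretch was 796 kb long, and 465 of 25390 stretches (1.83%) were as long; in the WT list alone it was 746 kb, and 568 of 12349 (4.60%) were as long. In the 500 kb on each side of the array, 5% of the sequence was in WT islands and 8.40% in KO islands. These sides are not free of defensin genes. The upper side takes in the beta genes from Defb1 to Defb13, which hold 19.0 of its 35.5 kb in WT islands and 41.5 of its 51.0 kb in KO islands.

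**Figure D1:**
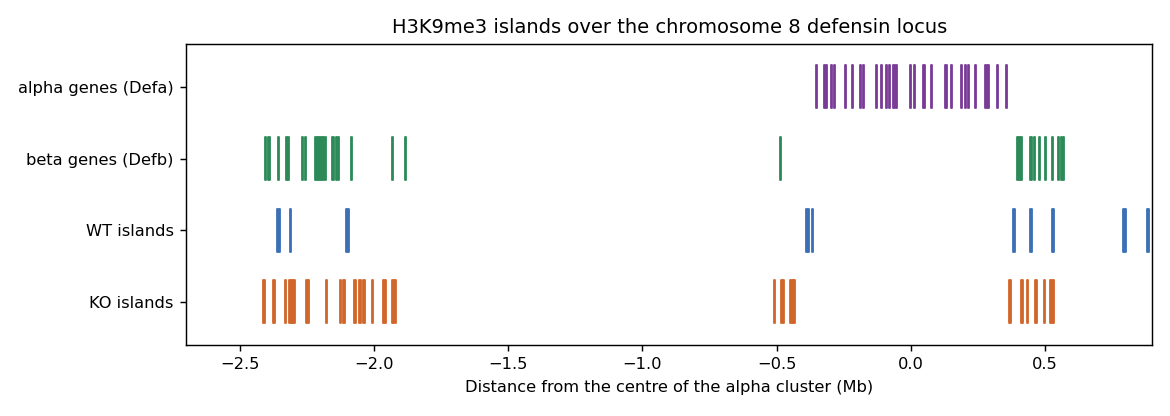
Defensin genes and H3K9me3 islands on chromosome 8, drawn to scale as distance in Mb from the centre of the alpha cluster (genes shorter than 4 kb are widened so that they can be seen). Alpha genes, beta genes, WT islands and KO islands are on separate rows; no island of either genotype lies under the alpha genes, while the beta groups to the left and right of them have islands of both genotypes and Defb33, which stands alone, has a KO island.

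Start windows of the alpha genes often repeat each other's sequence. Only these windows were compared, in stretches of 50 bases, and the sequence between the genes was not examined. In 13 of the 16 alpha start windows, over 50% of the 50-base stretches also occurred in the start window of another gene, and the median was 100%. The 10 windows of 5 pairs were identical over all 300 bases (Defa21 and Defa22, Defa23 and Defa31, Defa2 and Defa20, Defa36 and Defa37, Defa42 and Defa43). Among the 29 beta windows 22 shared no such stretch, and the highest share was 19.5%, in Defb8. Reads were 100 bases long and paired, per the labels, and how reads with several matches were treated is not given in the sources used here.

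Over all protein-coding genes, shared start windows went with fewer islands. Of the 1702 genes that shared over 50% of their window, 4.47% carried a WT island and 3.35% a KO island, against 15.0% and 14.5% of the 14538 genes that shared none. Without olfactory and vomeronasal receptor genes these shares were 4.78% and 3.27%, against 13.9% and 11.9%. The groups were not matched for region length. Among the 409 non-receptor genes with regions of alpha length, shared or not, the shares were 5.62% in WT and 9.78% in KO. How much of the contrast goes with length was not tested. Of the 16 alpha genes with a window, 13 belong to the group with over 50% shared. The part of repeated sequence in the count of 0 was not tested. The 2 alpha genes whose windows shared no stretch, Defa30 and Defa28, had no island either.

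**Figure D2:**
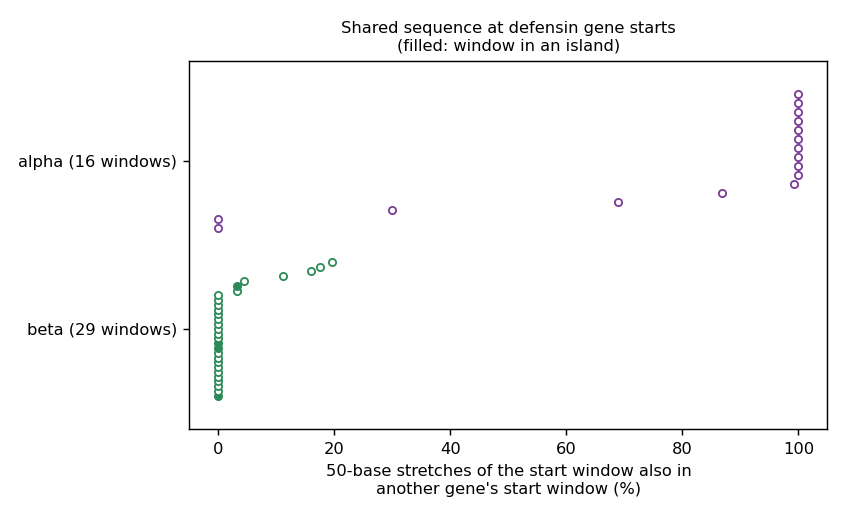
Share of the 50-base stretches of each start window that also occur in the start window of another protein-coding gene, in percent, with 1 point per window and the points of a row spread vertically for visibility. Most of the 16 alpha windows lie at or near 100% and none is filled, while the 29 beta windows lie between 0 and 19.5% and 4 are filled, meaning that they lie in an island.

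More beta defensin genes carried a KO island than a WT island. Of 42 genes, 4 carried one in WT (9.52%, exact 95% binomial interval 2.66 to 22.6, for counting only) and 12 in KO (28.6%, 15.7 to 44.6). In all, 1 gene was covered in both genotypes, as were 7.58% of protein-coding genes. A further 3 were covered in WT alone, where the share of all genes was 6.39%, and 11 in KO alone, where it was 6.16%. The other 27 had no island. Beta regions were 4.70 to 39.1 kb long, and among 14715 other genes with regions in this range 8.28% were covered in WT and 8.79% in KO, or 6.46% and 5.01% of the 13284 that are not olfactory or vomeronasal receptor genes. The count for WT was thus near both backgrounds, and the count for KO was above both. A high KO share was not particular to beta defensins. Over the 1555 genes with regions of alpha length, most of them olfactory or vomeronasal receptor genes, 18.5% were covered in WT and 33.5% in KO. With the KO list reduced to the WT number of islands the KO count was 7 of 42, where 8.40% of protein-coding genes were covered. With only those islands that were denser, in reads per kb, than the median of their list, it was 10 in KO and 0 in WT, where 9.09% and 8.95% of protein-coding genes were covered.

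Defb11 was the 1 gene with islands in both genotypes. A WT island at chr8:21904501-21915500 held 410 reads and a KO island at chr8:21899001-21912000 held 542, with 37.3 and 41.7 reads per kb. They shared 7.50 kb. Both spanned the whole gene (chr8:21905374-21906432) and its start window shown above. In WT 3.93 kb (77.7%) of the region was covered and in KO 5.06 kb (100%).

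Islands in WT alone lay over Defb38, Defb50 and Defb29. Defb38 (chr8:19023404-19026568), known from the epididymis, lay wholly inside a WT island of 10 kb, chr8:19019001-19029000, with 373 reads, and all 7.17 kb of its region were covered. No KO island overlapped this island, and the nearest KO island was 10403 bp from the gene. At Defb50 (chr8:21823539-21831296) a WT island of 8 kb with 322 reads covered 7.80 kb of the region, or 66.3%, with 5.80 kb inside the gene, and the nearest KO island was 5038 bp away. At Defb29, on chromosome 2, a WT island at chr2:152541501-152549000 with 303 reads reached 0.541 kb into the upstream flank and did not touch the gene. These 3 genes thus differ in what is covered: a whole gene, most of a gene and an upstream edge.

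Islands in KO alone reached furthest over Defb41, on chromosome 1 (chr1:18250978-18265138), another gene known from the epididymis. A KO island at chr1:18257001-18268000 with 426 reads covered 10.1 kb of its region (55.8%), including the start window shown above, and the nearest WT island was 182977 bp away. Defb1, a beta defensin that epithelia make without induction, had 6.18 kb under a KO island at chr8:21791001-21799000 with 325 reads, of which 4.18 kb lay in the gene. The nearest WT island was 9554 bp from Defb1. Defb39, also known from the epididymis, had 4.60 kb under 2 KO islands, 1 over its start window and 1 past its other end. The island at its start overlapped a WT island, chr8:19067001-19071500, that lay 2079 bp from the gene and so just outside the 2 kb flank. Defb39 is the gene nearest to that limit from outside, and Defb34, where a KO island reached 0.0400 kb into the flank, the nearest from inside. The contrast between genotypes at these 2 genes rests on distances of under 100 bp.

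The remaining genes with a KO island alone were covered in part. Defb4 (3.05 kb), Defb2 (2.98 kb), Defb33 (2.72 kb) and Defb9 (2.29 kb) had an island over 1 end of the gene, with 1.05, 0.982, 0.723 and 0.288 kb inside the gene body. Defb2 and Defb4 are beta defensins that epithelia can switch on during infection. At Defb33 and Defb9 the strand is known, and the covered end was the one away from the start. Defb40 (1.59 kb), Defb5 (0.828 kb), Defb8 (0.606 kb) and Defb34 were reached in a flank alone. When at least 50% of a region had to be covered, 2 genes were left in KO (Defb41 and Defb11) and 3 in WT (Defb38, Defb50 and Defb11), so under this setting KO did not have more genes than WT. The same setting covered 3.23% of protein-coding genes in KO and 2.60% in WT.

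**Figure D3:**
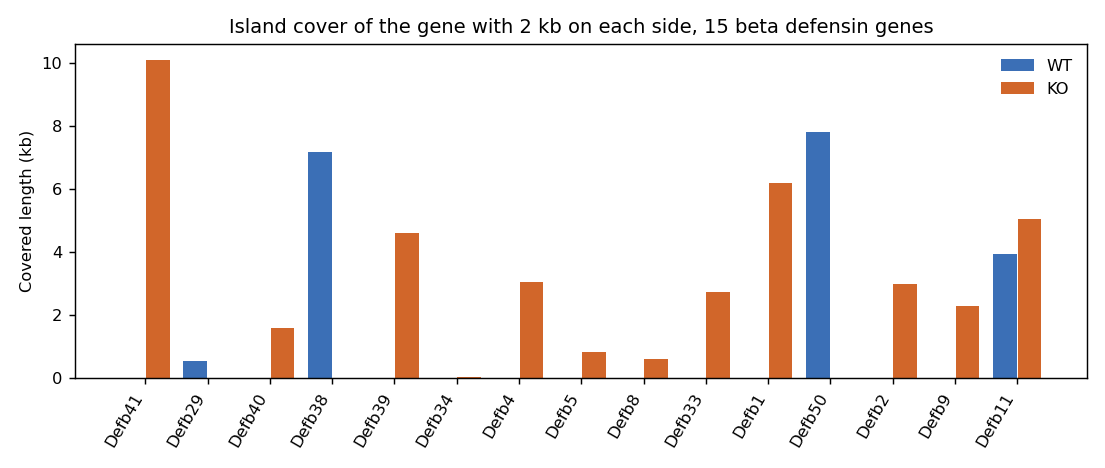
Length in kb of each gene region (gene with 2 kb on each side) that lay in WT or KO islands, for the 15 beta defensin genes with an island, in genome order; each bar is 1 library, so there are no error bars. Defb11 has both bars, Defb29, Defb38 and Defb50 have a WT bar alone, and the other 11 a KO bar alone.

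Other well-known beta defensins lay near islands without holding one. Defb14, the mouse counterpart of a human beta defensin of skin, had no island over its region of 39.1 kb, the longest of the family, and a KO island 5191 bp away. Defb3, inducible in airways, lay 7360 bp from a WT and 9161 bp from a KO island. Defb10 and Defb46 lay 7400 and 9857 bp from a KO island. Start windows of beta genes lay in an island at 2 of 29 genes in WT and 3 of 29 in KO, against 3.53% and 3.98% of 17492 protein-coding genes.

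By cluster, most KO islands lay in 1 place, which is also the longest beta cluster, at 527 kb. Genes of 1 type less than 500 kb apart on a chromosome were joined, which gave 6 beta clusters of 988 kb in all, with 5.06% under WT islands and 17.5% under KO islands, a ratio of 3.45. The cluster from Defb40 to Defb7 (chr8:18972914-19499775, 14 genes) had 3 WT islands over 23.5 kb and 15 KO islands over 118 kb, or 4.46% and 22.4%. As a share of length this KO cover was not the highest. The other beta clusters with a KO island had 23.6% to 31.0%. Genes with an island numbered 1 in WT and 6 in KO. With the KO list reduced to the WT number of islands, KO cover was 34.6 kb. Without this cluster the other 5 held 26.5 kb in WT and 54.4 kb in KO, a ratio of 2.05, and 3 and 6 of 28 genes had an island. Chromosome 8 as a whole had 4.13% of its length in WT islands and 10.7% in KO islands, a ratio of 2.59.

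The 15 KO islands of this cluster followed each other from Defb40 to Defb8 and then stopped. Each was 5.50 to 12.0 kb long, 7 touched a gene region and 8 lay between genes. Above the last of them neither list had an island for 1410 kb (chr8:19461001-20869000), a length that 66 of 31071 autosomal stretches (0.212%) reach. That share, too, counts stretches and not the sequence they hold. This stretch held Defb7, the last gene of the cluster, and 5 other protein-coding genes. In the 500 kb on each side of the cluster WT islands covered 0.750% and KO islands 1.74%, so within each library the cluster stood above its surroundings. Gaps in the genome assembly were not analysed here.

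The cluster from Defb1 to Defb13 (chr8:21774555-21950622, 9 genes), above the alpha array, had the highest WT cover as a share of its length, though not in kb. Its 2 WT islands covered 19.0 kb (10.8%) and its 5 KO islands 41.5 kb (23.6%), with 7.50 kb in common, all of it at Defb11. Genes with an island numbered 2 in WT (22.2%) and 4 in KO (44.4%), where 14.0% and 13.7% of all protein-coding genes were covered. In the 500 kb on each side the shares were 4.90% and 2.60%, but most of the lower side is the alpha array, which had no island. With the reduced KO list the KO cover was 22.0 kb, close to that of WT. Defb33, between Defb7 and the alpha array, stands alone under the 500 kb limit and had 2.72 kb under 1 KO island.

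On the other chromosomes the 3 clusters were unlike one another. The 11 genes from Defb23 to Defb25 on chromosome 2 (chr2:152457055-152625053) had the 1 WT island beside Defb29, 7.50 kb or 4.46% of the cluster, and 0 KO islands. The KO list was empty there over 2370 kb, while 3.90% of the 500 kb on each side lay in WT islands. Across chromosome 2 the shares were 6.91% in WT and 10.9% in KO, so this place went against its chromosome. The 5 genes from Defb48 to Defb42 on chromosome 14 had 0 islands in either list. They lay in a stretch of 2680 kb without a KO island, a length that 32 of 25390 stretches (0.126%) reach. The stretch without an island in either list was 516 kb long there. A long stretch without KO islands was thus not particular to the alpha array, where it was 796 kb. On chromosome 1 Defb18 had 0 islands and its neighbour Defb41 the KO island described above, so that 31.0% of this cluster lay in KO islands and 0% in WT islands, in surroundings with 4.65% in WT islands and 16.1% in KO islands.

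**Figure D4:**
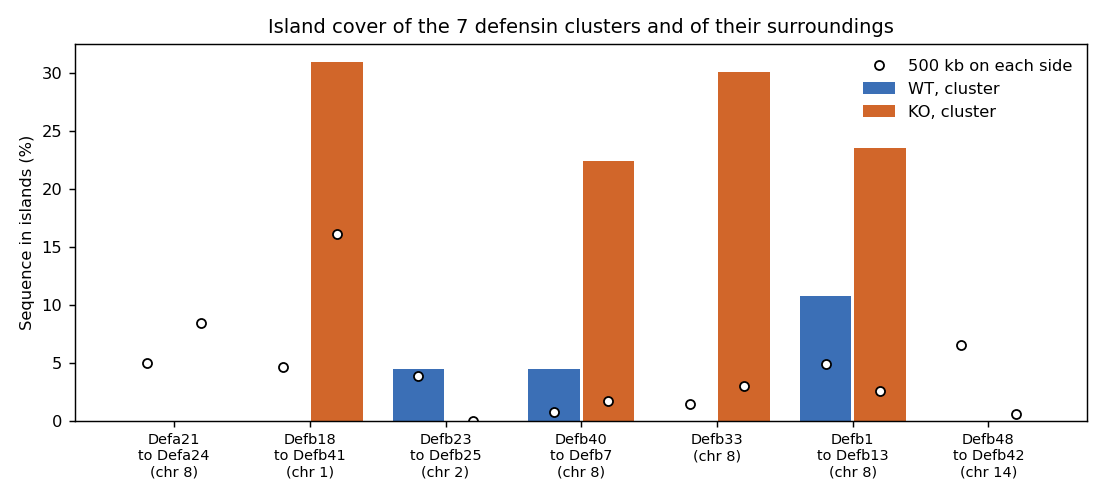
Share of the sequence of each defensin cluster in WT and KO islands (bars, in percent), with the share in the 500 kb on each side as open circles; each value is from 1 library. On chromosome 8 the sides of some clusters take in other defensin clusters. The alpha cluster and the chromosome 14 beta cluster have no bars, the chromosome 2 cluster has a WT bar alone, and the 3 beta groups on chromosome 8 have KO bars of 22.4% to 30.1%.

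The islands in defensin clusters were of ordinary density for these lists. The 6 WT islands had 37.3 to 48.0 reads per kb, with a median of 39.5, and 1 was above the median of the WT list. That one, beside Defb39, touched no gene region, so each of the 4 WT islands at genes was at or below the list median. The 22 KO islands had 37.8 to 48.4 reads per kb, with a median of 40.7, and 13 were above the median of the KO list. For scale, the WT list had its 1st percentile at 34.3 and its upper quartile at 43.0 reads per kb, and the KO list at 34.1 and 42.6. Of the 6 WT islands 2, and of the 22 KO islands 2, overlapped an island of the other genotype. The same share over the whole lists was not computed, so this is not read as a trait of defensin clusters.

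**Figure D5:**
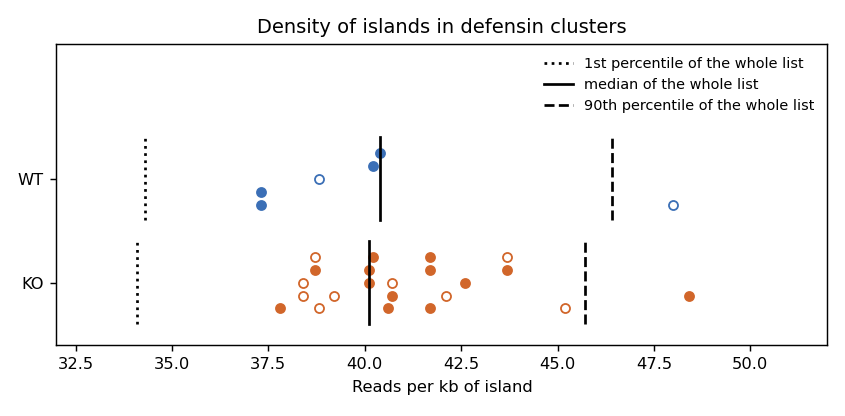
Reads per kb of each island in a defensin cluster, with 1 point per island, filled where the island touches a gene region and open where it lies between genes; lines mark the 1st percentile, median and 90th percentile of the whole list of that genotype. Of the 6 WT islands 1 lies right of its median line, and of the 22 KO islands 13 do.

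Islands at other genes of antimicrobial defence were counted in the same way. Of 36 genes matched from a list of 37, 2 carried a WT island and 1 a KO island, and 34 carried none. Over all protein-coding genes the shares were 14.0% and 13.7%, and over genes with regions of beta defensin length that are not olfactory or vomeronasal receptor genes 6.46% and 5.01%. Counts this small are not read as a trait of the listed genes. S100a9, a subunit of calprotectin, had 7.09 kb under a WT island at chr3:90683501-90706500 and 2.72 kb under a KO island at chr3:90695001-90705500, which shared 10.5 kb. Pglyrp4, a peptidoglycan recognition protein, had 1.02 kb under a WT island. Neither Mmp7, the matrilysin that activates cryptdins, nor Ccr6, a receptor for beta defensins, nor the defensin-like epididymal genes Spag11a and Spag11b had one. The same held for the 7 regulators of Paneth and secretory cells (Atoh1, Sox9, Spdef, Tcf7l2, Xbp1, Atg16l1 and Kcnn4).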

How the data were processed

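H3K9me3 chromatin immunoprecipitation and sequencing was analysed in 1 WT and 1 Suv39h1 KO library of CD8+ T cells, grouped by title. Per the submitters' processing notes, Bowtie2, SICER 1.1 and mm10 were used; the sources used here do not give the window, gap, false discovery threshold, duplicate handling or use of the input. The deposited lists give a whole-number count per island, without a header, read as ChIP reads and not scaled to depth or input. Coordinates lie on a grid of 500 bp and were converted to positions counted from 1.

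Genes came from a RefSeq table of GRCm38.p6; 365 genes on scaffolds were left out by the order of the table. Overlaps were computed in Python 3.11.15, checked on simulated islands against a brute-force count, and exact (Clopper-Pearson) intervals in SciPy 1.17.1. Start windows are RefSeq's, 1 per gene for CG and 50-base counts (both strands), a measure chosen after the data were seen. Defensin genes and lists were chosen with earlier results of these data known. Named are all defensin genes with an island, those within 10 kb of one, the ends of clusters, Defb1, Defb2, Defb3, Defb4, Defb14, Defa24, Defa5 and Defa17, and listed antimicrobial genes with an island; other names were chosen after their values were seen. Alternatives were flanks of 0 or 10 kb, only islands denser than their list's median, the KO islands with most reads down to the number in WT, 50% cover, and clusters joined up to 1 Mb.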

Additional observations from a re-analysis of the deposited data

How the results depend on the processing

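Of 62 alternative values for 18 counts and covered lengths, 45 stayed within 1.5 times the value given and 17 did not. Many of the 45 could not have moved. A value of 0 cannot rise under a stricter setting, and the reduced KO list leaves WT values as they are. The tally is therefore not a measure of how firm the results are. With 10 kb on each side 1 alpha gene was reached in WT (Defa21) and 1 in KO (Defa24), and 8 beta genes in WT, where 18.7% and 17.6% of protein-coding genes were covered in WT and KO. With at least 50% of the region covered, KO had 2 beta genes. With only islands denser than their list's median, beta genes in WT fell to 0, WT cover to 0 kb on chromosome 2 and from Defb1 to Defb13 and to 4.50 kb from Defb40 to Defb7, and KO cover to 0 kb on chromosome 1 and 71.0 kb from Defb40 to Defb7. With the KO list reduced to the WT number, a setting that can only lower KO values, KO had 7 beta genes, 34.6 kb from Defb40 to Defb7 and 22.0 kb from Defb1 to Defb13. Joining genes up to 1 Mb apart merged Defb33 with Defb1 to Defb13 across the alpha array and gave a WT cover of 39.0 kb and a KO cover of 77.5 kb. The cause of the other changes was not tested. No paired analysis was possible because a single H3K9me3 library stands for each genotype. Whole-library depth and the inputs were not analysed here, so an island in 1 list alone does not show that the mark was absent in the other.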

Other observations

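Relatives of the defensins that are not among the 71 genes carried islands in KO alone where they carried any. All of these relatives lie on chromosome 8 except Defb44-ps, which lies on chromosome 1 and had no island. Of 13 defensin pseudogenes, 0 carried a WT island and 4 a KO island: Defa-ps14 (4.94 kb), Defa-ps11 (4.83 kb), Defa-ps13 (2.29 kb) and Gm21944 (1 kb). Over all protein-coding genes 14.0% were covered in WT and 13.7% in KO. Defa-ps14 and Defa-ps13 lie among the beta genes from Defb40 to Defb7, whereas Defa-ps11 lies just above Defa24, past the end of the alpha array as counted here. The protein-coding genes Gm15056 and Gm6040, which carry defensin synonyms and lie next to Defb33, had 5.85 and 8.54 kb in KO islands and 0 kb in WT. These genes were looked at after the values of their neighbours were seen. The islands at the 4 pseudogenes touched no region of the 71 defensin genes, whereas Gm15056 and Gm6040 share the KO island at Defb33.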
